A study of Mus musculus with 16 samples.

Results

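The proteasome is the protease that degrades ubiquitin-tagged proteins, and its subunits are encoded by the Psm genes. Of the 41585 rows in the mouse count table, 48 carried a symbol of the form Psma, Psmb, Psmc, Psmd, Psme, Psmf or Psmg followed by a number, and these 48 rows were taken as the proteasome genes. All 48 were found in RefSeq (GRCm38.p6). They comprised 7 core alpha genes, 4 structural and 3 catalytic core beta genes (together the 14 standard core genes), 3 immunoproteasome genes, 9 genes of the base, 8 of the lid, 4 activators, 1 inhibitor, 4 core assembly chaperones, 3 base assembly chaperones and 2 genes of tissue-specific cores. A further 5 rows whose names begin with Psm fell outside this rule, among them Psme2b and Psmb6-ps2, which are treated as copies of members.

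Liver RNA was sequenced from C57BL/6 mice of 2 genotypes and both sexes after 16 weeks on a diet with 60% fat, a design made to study human CYP2B6 in obesity caused by diet. Cyp2b-null mice lack mouse Cyp2b genes, as their label says, and hCYP2B6-Tg mice carry human CYP2B6, a drug-metabolising cytochrome P450. All groups received the same diet, so no group gives a level on ordinary food, and no label used here states the age of the animals or the promoter of the transgene. The 4 groups held 4 libraries each, which carry the number of their title (null_female 1 or tg_male 2, where tg stands for hCYP2B6-Tg) and whose values follow in the order of those numbers, and a library is not stated to be a separate animal, so p-values measure the spread between these libraries.

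Library totals ran from 5584587 to 9672708 counts, and 13470 genes passed a filter on low counts. Levels are CPM, the count relative to the TMM-scaled library size. In a library with no count for a gene, 3 counts or 0.313 to 0.542 CPM were taken as the upper limit, for counting error alone. The sex on the label fitted the data in all 16 libraries. The mouse Cyp2b10, Cyp2b19 and Cyp2b23 rows together had at most 1 count in any Cyp2b-null library, whereas transgenic females had 9 to 26 counts and transgenic males 6 to 50, and the human transgene was not analysed here. The hepatocyte markers summed to 111362 to 143377 CPM over all libraries.

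The proteasome has a barrel-shaped core of stacked rings of alpha and beta subunits, with the proteolytic sites on Psmb5, Psmb6 and Psmb7. A regulatory particle caps the core: its base holds a ring of ATPases (Psmc1 to Psmc6) that unfold substrates, and its lid holds Psmd14, which removes ubiquitin. Interferon gamma induces Psmb8, Psmb9 and Psmb10, which replace Psmb5, Psmb6 and Psmb7 in newly built cores to form the immunoproteasome and favour peptides for MHC class I. In liver the standard form predominates in hepatocytes, while immune cells carry the immunoproteasome.

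Averaged over genotypes, 5 of 8 lid genes and 3 of 9 base genes were lower in females than in males, where 8.64% of all tested genes were. Within each genotype 1 lid and 1 base gene were lower, where 3.95% (Cyp2b-null) and 5.56% (hCYP2B6-Tg) of all tested genes were. Psmb10 was higher in females, and no proteasome gene passed the test for genotype. The level that the table gives for several core genes, Psma5 above all, depended on whether reads assigned to their pseudogenes were counted with them.

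The 48 genes together took 0.241% to 0.260% of the counts in the 8 female libraries and 0.258% to 0.282% in the 8 male libraries. Of the 48, 46 passed the filter. Psmb11, the catalytic subunit of the thymus core, had 0 counts in all 16 libraries. Psma8, the alpha subunit of the testis core, stayed below the filter with 0 to 20 counts, the 20 being in tg_male 4. Psma8 averaged 0.289 ± 0.104 CPM in Cyp2b-null males and 1.09 ± 0.800 CPM in hCYP2B6-Tg males (SD, n = 4). These groups did not overlap, as 4.77% of all tested genes did not. The nearest libraries, null_male 4 and tg_male 2, both had 3 counts (0.432 and 0.458 CPM), so they were apart only through library size. The exact two-sided permutation p, not adjusted, was 0.0286, the smallest that 4 against 4 libraries can give, while in females it was 0.543.

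Subunits of one complex are present in equal number in the particle, so their transcript levels were compared per kb of exon. The levels that follow are means of 16 libraries in CPM per kb of exon, with exons from GENCODE M21. Among the 14 standard core genes the level ran from 1.0 for Psma5 to 102 for Psmb7, with a median of 49.2. The 9 base genes lay in a narrower range, from 26.1 for Psmd2 to 54.0 for Psmc3, the highest ATPase. The 8 lid genes ran from 18.1 for Psmd11 to 56.4 for Psmd6. Of the 3 immunoproteasome genes, Psmb9 (2.90) and Psmb8 (6.74) lay below the base and lid ranges. Psmb10, at 26.5, lay at the low end of the base range and within that of the lid.

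The accessory genes also differed in level. Among the activators Psme1, a subunit of the PA28 ring that opens the core gate, was at 65.8, its partner Psme2 at 2.38, the nuclear activator Psme3 at 19.6 and the large activator Psme4 at 18.2 CPM per kb of exon. The inhibitor Psmf1 was at 7.46. The core assembly chaperones lay between 6.13 for Psmg1 and 12.3 for Psmg3, and the base assembly chaperones between 3.31 for Psmd10 and 13.8 for Psmd9.

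The low values of Psma5 and a few others coincided with reads in other rows. For 12 of the 48 genes the table held rows of annotated copies that share at least 10 stretches of 50 bases with that gene alone, 17 such rows in all. All but Psme2b are annotated as processed pseudogenes, which are intronless copies made from messenger RNA. Some rows of other genes also shared such stretches and were not counted as copies. Nek6, for example, shared 28.1% of the stretches of Psmb7. Psma5 held 147 counts over the 16 libraries, against 2747 in Gm8394 and 2847 in Gm12989, so that 97.4% of the reads assigned to Psma5 or its copies were in the copies. Gm8394 matches the Psma5 coding sequence at 98.9% of 723 aligned bases and Gm12989 at 98.6%.

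Psma3, another alpha ring gene, held 1566 counts, and its copies held 12277, or 88.7% of the total. Of these, 11827 were in Gm13835, which is identical to Psma3 over all 662 aligned coding bases. Psme2 held 273 counts against 935 in Psme2b (77.4% in the copy), which is annotated as protein coding and matches it at 99.3% of bases. The share in copies was 68.7% for Psmb3, 46.7% for Psmb5, 35.5% for Psmd11, 33.4% for Psma4, 30.9% for Psmd2 and 14.7% for Psmc1. It was 6.92% for Psma2, 2.83% for Psmb6 and 0.448% for Psme1. Reads of a gene and of its copy cannot be told apart from these counts, and no source used here states the read length or how multiply mapped reads were treated.

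The stretches below, coding bases 121 to 210 counted from the first base of the start codon, are shown because a read lying within one could not be placed on Psma5 or on Psma3 alone. Psma5 lies at chr3:108256926-108279952, Gm8394 at chr10:85313488-85314439, Gm12989 at chr4:135715728-135716698, Psma3 at chr12:70969283-70995877 and Gm13835 at chr6:31141865-31142726 (GRCm38). A capital marks a base that differs from the parent gene, and there is 1 such base, in Gm12989. Sequences are from GENCODE M21, 5′ to 3′ along the coding strand.
Psma5: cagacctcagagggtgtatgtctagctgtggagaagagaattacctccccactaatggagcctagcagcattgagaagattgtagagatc
Gm8394: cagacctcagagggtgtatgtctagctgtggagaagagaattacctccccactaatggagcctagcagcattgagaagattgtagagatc
Gm12989: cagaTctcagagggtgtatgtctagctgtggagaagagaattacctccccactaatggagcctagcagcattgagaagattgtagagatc
Psma3: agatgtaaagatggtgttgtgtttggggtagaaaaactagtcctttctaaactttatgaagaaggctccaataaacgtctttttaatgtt
Gm13835: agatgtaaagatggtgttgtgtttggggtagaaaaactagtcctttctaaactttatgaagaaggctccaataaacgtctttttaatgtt

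With each gene's copy rows added to it, the standard core genes came closer to each other. Psma5 went from 1.0 to 39.3 CPM per kb of exon, Psma3 from 4.67 to 41.0, Psmb3 from 11.5 to 37.1 and Psmb5 from 23.2 to 43.5. The highest level was then 5.94 times the lowest among the 14 core genes, against 102 times with each gene alone, and 3.79 times per kb of coding sequence. Psme2 went from 2.38 to 10.4. The base narrowed from 2.07 to 1.43 times and the lid from 3.11 to 2.06 times, while the 3 immunoproteasome genes have no copy row and kept a 9.16-fold range. This sum was tried after the levels had been seen.

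**Figure D1:**
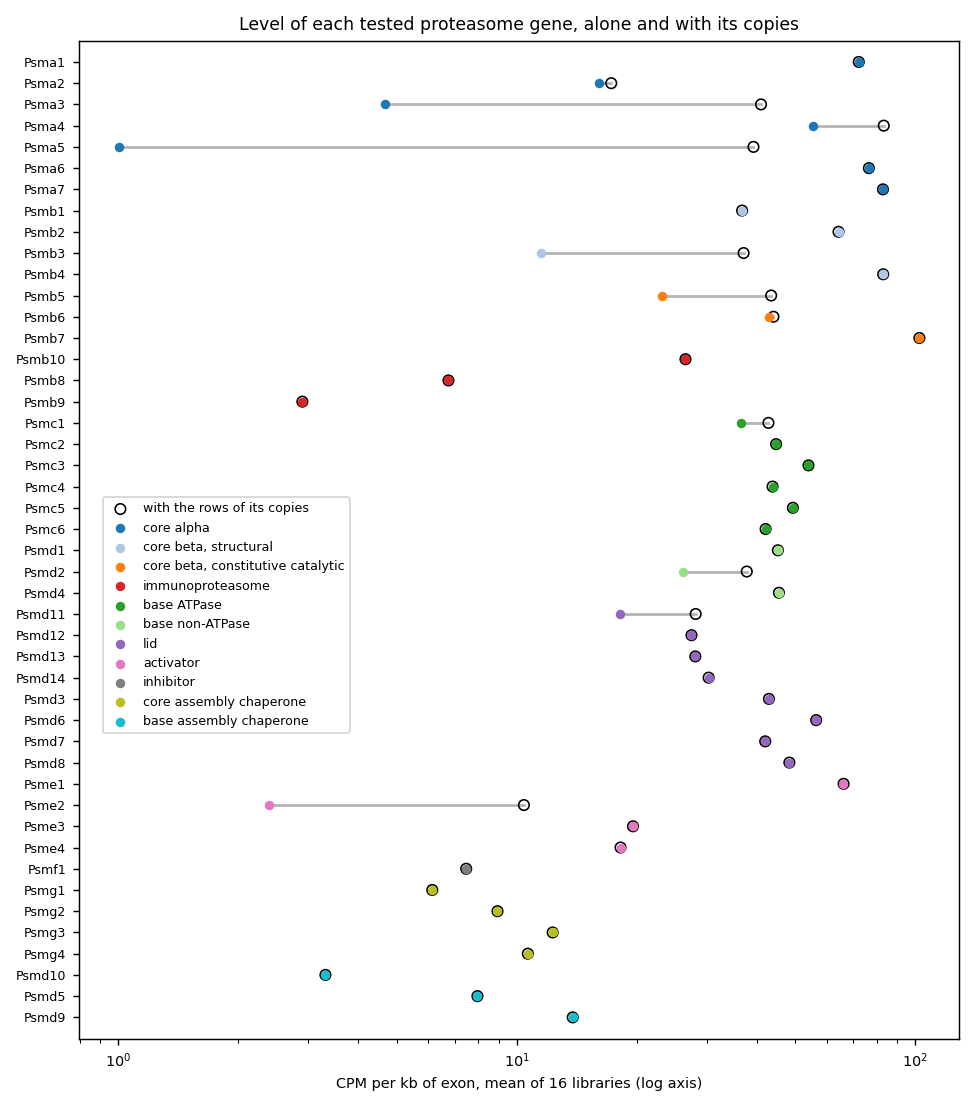
Level of each of the 46 tested proteasome genes, as the mean of 16 libraries in CPM per kb of exon on a log axis, alone (filled points, coloured by role) and with the rows of its copies (open circles). Psma5 moves from 1.0 to 39.3 and Psma3 from 4.67 to 41.0, while most genes have both marks in the same place.

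Sex was the comparison in which proteasome genes differed. Summed over its 8 genes, the lid was at 533 ± 28.6 CPM in Cyp2b-null females and 538 ± 13.9 in hCYP2B6-Tg females, against 611 ± 14.7 and 608 ± 25.0 in Cyp2b-null and hCYP2B6-Tg males (SD, n = 4). The 8 female libraries ran from 490 to 552 CPM and the 8 male libraries from 585 to 643, so that the sexes did not overlap. The 9 base genes summed to 659 to 764 CPM in females and 782 to 853 in males, also without overlap. The 14 standard core genes summed to 740 to 875 CPM in females and 834 to 950 in males, which overlapped. The immunoproteasome genes went the other way, with 49.9 to 63.8 CPM in females and 33.2 to 48.8 in males. These sums are levels set mainly by the genes with most counts, and they carry no test.

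**Figure D2:**
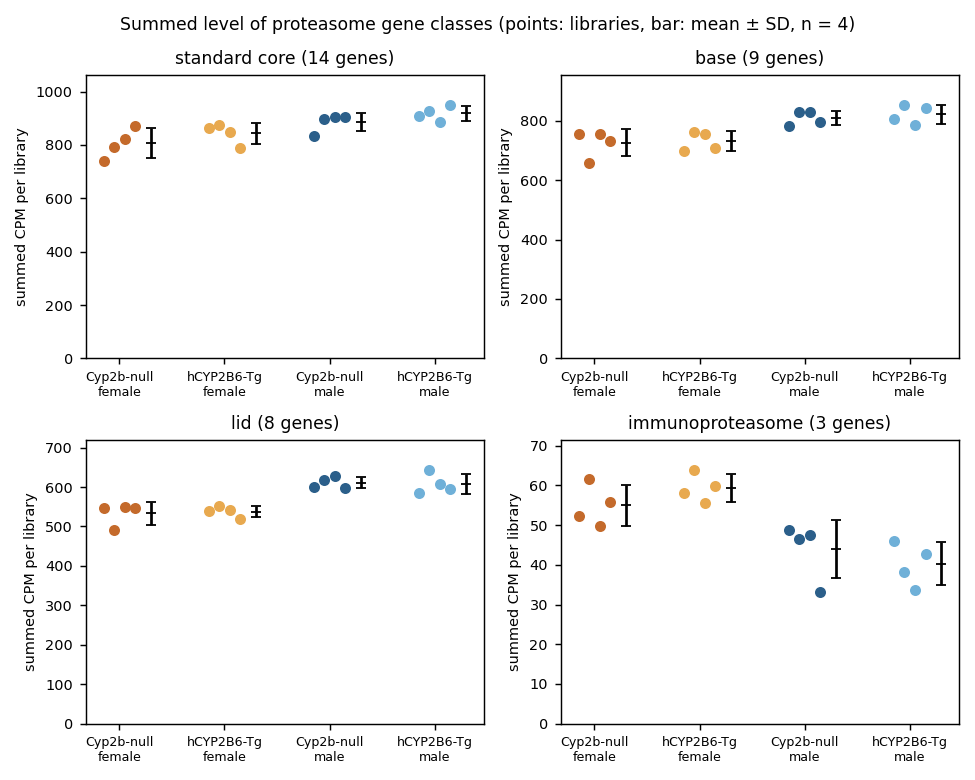
Summed CPM of 4 classes of proteasome genes in each of the 16 libraries, by group, with each group's mean ± SD (n = 4). Lid and base sums of all male libraries lie above those of all female libraries, and immunoproteasome sums lie below them.

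Averaged over the genotypes, 14 of the 46 tested genes differed by sex (edgeR quasi-likelihood test, Benjamini-Hochberg adjusted p under 0.05 over 13470 genes), against 17% of all tested genes. Of the 14, 13 were lower in females, where 8.64% of all genes were, and 1 was higher, where 8.34% were. The 13 were 5 of the 8 lid genes, 3 of the 9 base genes, 4 of the 14 standard core genes and 1 of the 4 activators. The estimate was below 0 for 39 of the 46 genes, and the median log2 fold change, female minus male, was -0.11 against 0.01 for all tested genes. All 8 lid genes and all 9 base genes had estimates below 0. The changes were small: the 13 genes fell by between 0.17 and 0.34 on the log2 scale.

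Within genotypes the calls were fewer. In Cyp2b-null livers 3 of 46 genes were lower in females (3.95% of all genes) and 0 were higher (3.57%), where 7.52% of all genes differed in either direction. In hCYP2B6-Tg livers 5 were lower (5.56%) and 1 was higher (4.69%), where 10.3% differed. No gene's sex difference was itself shown to depend on genotype, as reported with the genotype results. All 4 libraries of one sex lay apart from all 4 of the other for 8 genes lower and 1 higher in Cyp2b-null females, where 6.64% and 5.66% of all genes did so. In hCYP2B6-Tg livers this held for 10 genes lower and 1 higher in females, against 8.2% and 7.41%.

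The calls within a genotype rested on few libraries. In Cyp2b-null livers the count of 3 fell to 0 without null_female 3 and to 1 without null_male 2. In hCYP2B6-Tg livers the count of 6 was 2 without tg_female 1, tg_male 3 or tg_male 5, and 3 without tg_female 2, tg_female 4 or tg_female 5, with Psmb10 passing each time. The averaged count stayed between 11 and 13 with any 1 of the 16 libraries left out. Psma6, Psmb5 and Psmd4 lost their call in several of these fits, and the other 11 genes passed in all 16.

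The base gene Psmc4, an ATPase of the unfolding ring at chr7:28041702-28050092 (GRCm38.p6), was at 53.0, 45.2, 57.0 and 58.7 CPM in Cyp2b-null females and 50.2, 59.6, 62.5 and 60.5 in hCYP2B6-Tg females. In males it was at 69.5, 72.4, 69.1 and 68.3 CPM (Cyp2b-null) and 70.2, 79.1, 62.6 and 72.3 (hCYP2B6-Tg). Every male library was above every female library, though tg_male 4 was only just above tg_female 4. The log2 fold change averaged over genotypes was -0.33 ± 0.07 (SE, adjusted p = 0.00106). Within genotypes Psmc4 passed in Cyp2b-null livers (-0.38 ± 0.10, adjusted p = 0.0137) and did not in hCYP2B6-Tg livers (-0.29 ± 0.10, adjusted p = 0.0583).

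Psmd2, the largest base scaffold subunit with Psmd1, showed the same separation. It was at 68.0, 65.0, 74.1 and 72.8 CPM in Cyp2b-null females and 55.5, 70.6, 76.5 and 68.1 in hCYP2B6-Tg females. Males were at 80.3, 93.0, 89.2 and 80.4 CPM and at 80.0, 90.9, 81.5 and 89.5, all above the highest female library. The averaged difference was -0.31 ± 0.07 (adjusted p = 0.00148), and with its copy Gm5422 added it was -0.29 ± 0.06 (adjusted p = 0.000795). The ubiquitin receptor Psmd4 was also lower in females (-0.17 ± 0.05, adjusted p = 0.0367).

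In the lid, Psmd14, the enzyme that cuts ubiquitin chains off substrates (chr2:61711694-61800376), had the largest estimate. It was at 46.9, 36.5, 46.1 and 42.8 CPM in Cyp2b-null females and 43.3, 51.6, 51.3 and 49.1 in Cyp2b-null males. In hCYP2B6-Tg mice it was at 36.3, 44.6, 38.3 and 38.4 CPM in females and 41.4, 62.0, 58.1 and 60.7 in males. The groups overlapped within both genotypes, in hCYP2B6-Tg mice through tg_male 2 alone. The difference was -0.34 ± 0.08 averaged (adjusted p = 0.00513) and -0.50 ± 0.12 in hCYP2B6-Tg livers (adjusted p = 0.00647).

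Psmd12, a structural lid subunit, was at 68.3, 56.9, 63.7 and 67.0 CPM in Cyp2b-null females against 78.4, 84.5, 83.2 and 74.5 in Cyp2b-null males, without overlap. In hCYP2B6-Tg mice it was at 72.8, 69.5, 63.9 and 68.7 CPM in females and 83.7, 81.7, 74.2 and 72.4 in males, where tg_male 5 fell just below tg_female 1. Its averaged difference was -0.25 ± 0.06 (adjusted p = 0.00390). The other lid genes that passed were Psmd13 (-0.26 ± 0.06), Psmd11 (-0.26 ± 0.07) and Psmd6 (-0.23 ± 0.06). Psmd13 ran from 44.8 to 56.3 CPM in the 8 female libraries and from 56.8 to 66.3 in the 8 male libraries, again without overlap.

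In the standard core, the trypsin-like catalytic subunit Psmb7 was at 94.7, 100.3, 105 and 119 CPM in Cyp2b-null females and 118, 125, 135 and 137 in Cyp2b-null males. In hCYP2B6-Tg mice it was at 112, 113, 116 and 97.3 CPM in females and 124, 129, 132 and 145 in males. The hCYP2B6-Tg groups did not overlap and the Cyp2b-null groups did, by 1 library each. Psmb7 passed in Cyp2b-null (-0.30 ± 0.09, adjusted p = 0.0356) and in hCYP2B6-Tg livers (-0.27 ± 0.09, adjusted p = 0.0436), and averaged it was -0.29 ± 0.06 (adjusted p = 0.00174). It was the single gene that passed in both genotypes. With 1 library left out, its call held in 10 of 16 fits for Cyp2b-null livers and in 7 of 16 for hCYP2B6-Tg livers.

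The alpha ring genes Psma1 (-0.21 ± 0.06) and Psma6 (-0.18 ± 0.06) and the catalytic Psmb5 (-0.24 ± 0.08) also passed averaged over genotypes. Psma1 was at 87.0, 85.0, 77.7 and 82.0 CPM in hCYP2B6-Tg females and 94.4, 102, 93.0 and 108 in hCYP2B6-Tg males, without overlap, and passed there (adjusted p = 0.0463). With copies added, Psma5 and Psma3 joined the genes lower in females. Psma5 plus copies was at 44.1 ± 3.55 and 44.6 ± 5.68 CPM in Cyp2b-null and hCYP2B6-Tg females and at 54.0 ± 3.60 and 51.9 ± 2.31 in the males (SD, n = 4). Its difference was -0.25 ± 0.07 (adjusted p = 0.0110), where Psma5 alone gave 0.09 ± 0.33 (adjusted p = 0.886). For Psma3 the values were -0.17 ± 0.05 (adjusted p = 0.0274) with copies and -0.07 ± 0.11 alone. The count over all members was then 16 of 46, 15 of them lower in females.

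Of the accessory genes Psme4, the activator PA200, passed in hCYP2B6-Tg livers (-0.32 ± 0.10, adjusted p = 0.0336) and averaged (-0.23 ± 0.07, adjusted p = 0.0192). It was at 107, 111, 103 and 105 CPM in hCYP2B6-Tg females and 124, 141, 135 and 132 in hCYP2B6-Tg males, without overlap. In Cyp2b-null females it spread widely, at 135, 94.2, 121 and 94 CPM, around the 126, 119, 122 and 123 of Cyp2b-null males. Of the 4 core and 3 base assembly chaperones 0 passed for sex. The smallest p among them was that of Psmg1 (0.27 ± 0.16, adjusted p = 0.282).

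**Figure D3:**
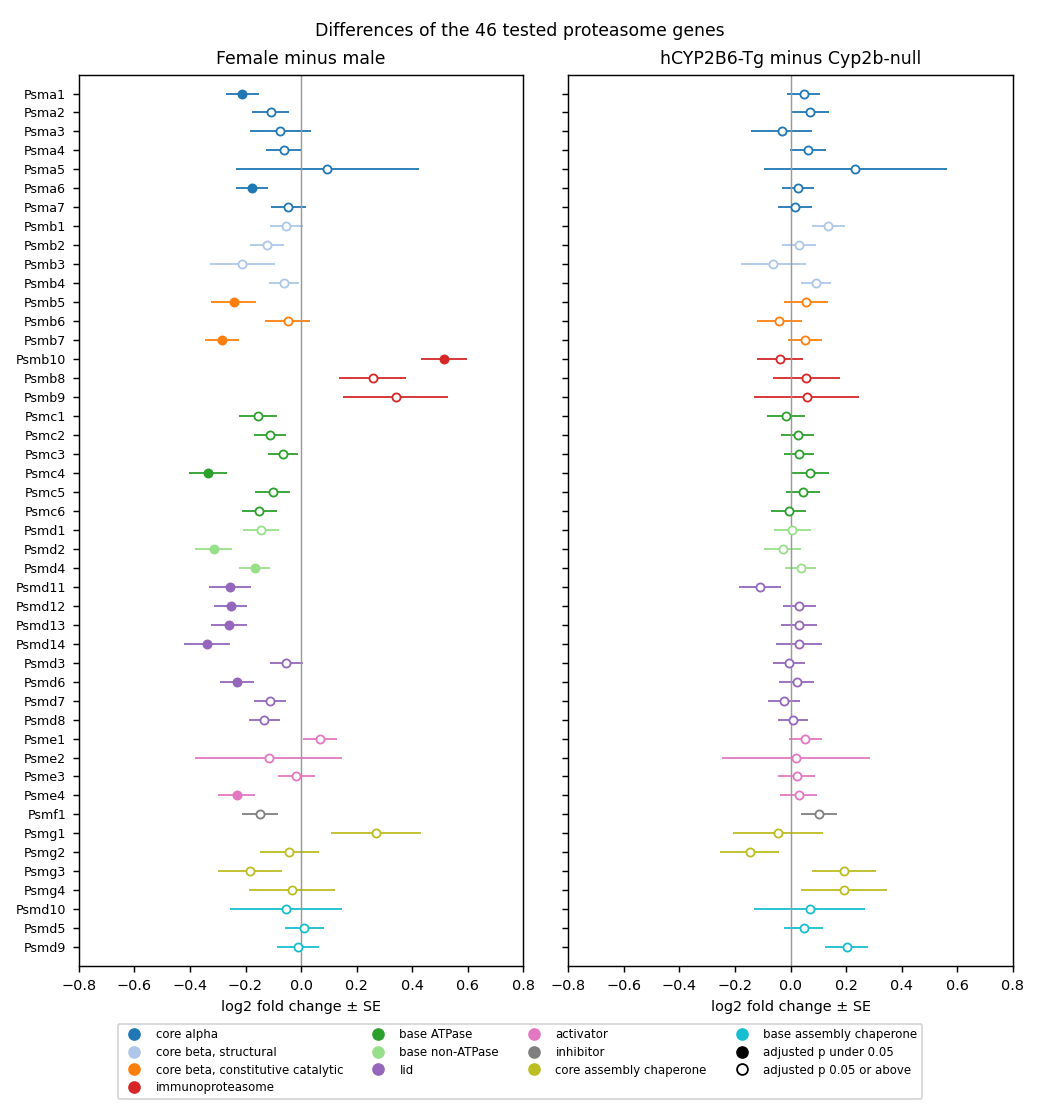
Log2 fold change ± SE of the 46 tested proteasome genes, female minus male averaged over genotypes (left) and hCYP2B6-Tg minus Cyp2b-null averaged over sexes (right), coloured by role. Filled points have an adjusted p under 0.05: 14 genes for sex and 0 for genotype.

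Psmb10, the immunoproteasome counterpart of Psmb7 at chr8:105935728-105938392 (GRCm38.p6), was the only proteasome gene that was higher in females by the adjusted test in the averaged and the hCYP2B6-Tg comparisons. It was at 37.8, 43.2, 36.5 and 40.3 CPM in Cyp2b-null females and 34.5, 29.4, 34.2 and 23.5 in Cyp2b-null males. In hCYP2B6-Tg mice it was at 42.1, 44.4, 40.3 and 42.1 CPM in females and 31.3, 24.9, 22.6 and 29.0 in males. Every female library was above every male library. The log2 fold change was 0.51 ± 0.08 averaged (1.43-fold, adjusted p = 9.44e-05) and 0.65 ± 0.12 in hCYP2B6-Tg livers (adjusted p = 0.000621). In Cyp2b-null livers it was 0.38 ± 0.12, which did not pass (adjusted p = 0.0545).

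The other immunoproteasome genes did not pass. Psmb8 and Psmb9 lie side by side in the MHC region, at chr17:34198195-34201454 and chr17:34182030-34187330. Psmb8 was at 10.2, 11.8, 9.90 and 12.2 CPM in Cyp2b-null females and 9.93, 12.8, 11.4 and 7.19 in Cyp2b-null males. In hCYP2B6-Tg mice it was at 11.3, 14.8, 11.8 and 13.4 CPM in females and 11.6, 9.54, 7.77 and 9.85 in males. The groups overlapped in both genotypes, and the averaged difference was 0.26 ± 0.12 (adjusted p = 0.153, 95% interval 0.01 to 0.51). Psmb9, the least abundant of the 3, was at 3.44 to 6.70 CPM in the 8 female libraries and 2.03 to 4.33 in the 8 male libraries, with a difference of 0.34 ± 0.19 (adjusted p = 0.240, 95% interval -0.05 to 0.73).

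Set against the subunit it replaces, Psmb10 reached 33.9% to 43.1% of the Psmb7 level in Cyp2b-null females and 34.9% to 43.3% in hCYP2B6-Tg females. In males the share was 17.1% to 29.2% and 17.2% to 25.2%, so that the sexes were apart in all libraries. The log2 ratio differed by 0.81 between the sexes, averaged over genotypes, with both subunits moving in opposite directions. Psmb8 was at 54.4% to 72.6% of Psmb5 in females and 31.8% to 58.0% in males, which overlapped. Psmb9 was at 8.75% to 20.1% of Psmb6 in females and 5.17% to 13.1% in males, which overlapped more widely. These shares are ratios of CPM, not corrected for length, and the Psmb5 level leaves out the reads in its copy. Constitutive Psmb6 itself, the caspase-like subunit, was at 25.6 to 39.3 CPM in females and 30.8 to 39.2 in males (-0.05 ± 0.08, adjusted p = 0.747).

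**Figure D4:**
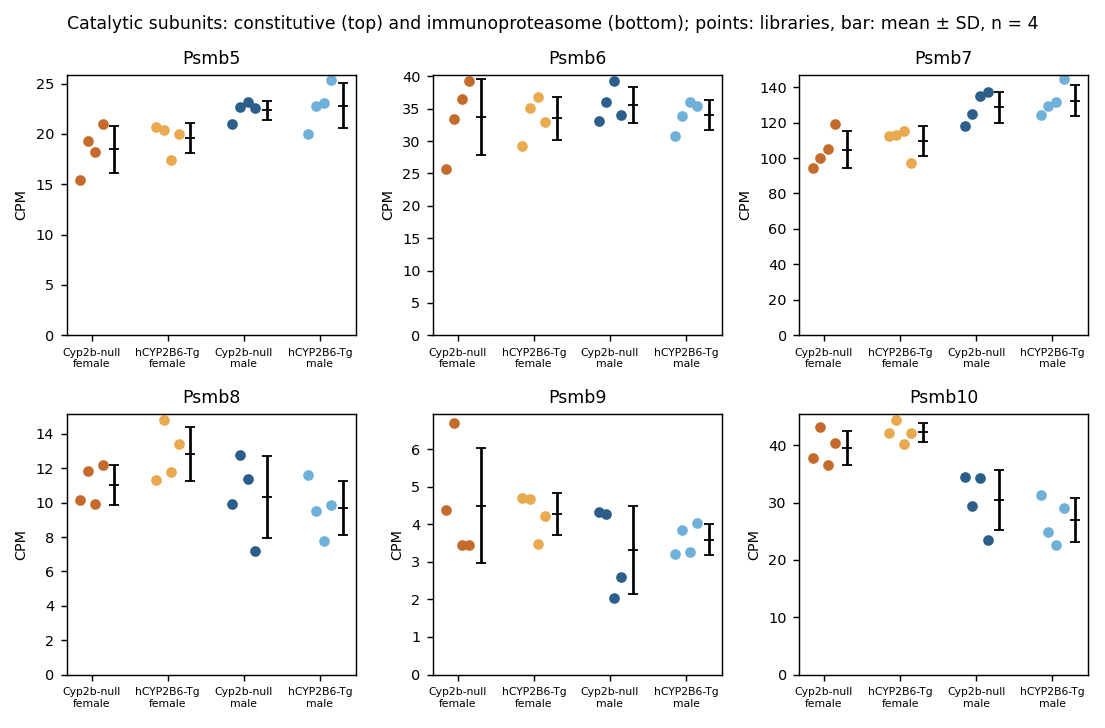
CPM of the constitutive catalytic subunits Psmb5, Psmb6 and Psmb7 (top) and of the immunoproteasome subunits Psmb8, Psmb9 and Psmb10 (bottom) in each library by group, with mean ± SD (n = 4). Psmb10 lies between 36.5 and 44.4 in females and between 22.6 and 34.5 in males.

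Genes of antigen presentation and the interferon gamma response were examined beside Psmb10. Averaged over genotypes, 10 of the 18 tested genes of that list were higher in females (8.34% of all genes), 0 were lower and 8 did not pass, with a median of 0.34. They included the guanylate-binding protein gene Gbp3 (1.26 ± 0.14), the MHC class I gene H2-T23 (0.39 ± 0.07), the transcription factor Irf1 (0.51 ± 0.10) and the peptide transporter gene Tap2 (0.52 ± 0.12). Ubd, a ubiquitin-like modifier gene of the same list, had 0 counts in all libraries. The PA28 genes Psme1 (0.07 ± 0.06, adjusted p = 0.490) and Psme2 (-0.12 ± 0.27, adjusted p = 0.816), which interferon gamma also induces, did not pass. The Psme2 row leaves out the 77.4% of reads in its copy Psme2b, which gave 0.19 ± 0.13 (adjusted p = 0.382).

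Some markers of macrophages were also higher in females. Of the 15 tested Kupffer and myeloid markers, 7 were higher (8.34% of all genes) and 0 lower in females averaged over genotypes. Within genotypes, 6 passed in Cyp2b-null livers (3.57% of all genes were higher) and 2 in hCYP2B6-Tg livers (4.69%). The 7 included Vsig4 (0.74 ± 0.09) and Clec4f (0.45 ± 0.08), and none of the 18 listed was at 0 in all libraries. Their summed level was 750 to 1221 CPM in Cyp2b-null and 776 to 1062 in hCYP2B6-Tg females, against 515 to 833 and 619 to 713 in the males. Of the lymphocyte markers 4 of 16 were tested and 2 of these, Ptprc and Cd79b, were higher in females (8.34% of all genes). Their part in the Psmb10 difference was not tested. In bulk tissue, more cells of a type and more RNA per cell cannot be told apart.

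Other marker lists moved less or with the opposite sign. Of 9 tested hepatocyte markers 1 was higher (Alb, 0.23 ± 0.06) and 3 were lower in females (Serpina1c, Apob and Ttr). Over all genes 8.34% were higher and 8.64% lower. The summed hepatocyte levels were 119326 to 143377 and 118138 to 136878 CPM in Cyp2b-null and hCYP2B6-Tg females and 111362 to 118253 and 118515 to 125055 in the males. Of the blood cell markers 1 of 5, Alas2, was lower in females (-2.69 ± 0.08), and of the fat cell markers 2 of 3 tested, Cfd and Cidec, were lower (8.64% of all genes). The other listed fat cell markers, Adipoq, Plin1, Lep and Retn, were below the filter, at 1.01 CPM or less in every library. The stellate markers had 1 of 7 higher (Dcn, 8.34% of all genes), and 0 of 8 endothelial, 0 of 3 cholangiocyte and 0 of 1 pancreas markers passed. The last 2 lists held 6 markers each, so several were below the filter. Their sums reached 98.1 and 25.0 CPM in 1 Cyp2b-null male library, null_male 4, against at most 56.8 and 3.92 in the other groups. Krt19 was at 38.9 CPM and Ctrb1 at 22.9 CPM in null_male 4. The Cyp2b-null male means were 10.1 ± 19.2 and 5.72 ± 11.4 CPM (SD, n = 4), so this library carried most of both. The part of these marker lists in the lower lid and base levels was not tested.

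Partners of the proteasome that lie outside the naming rule showed a similar mixture. Of 23 tested shuttle, unfolding and docking factors, 6 were lower and 2 higher in females averaged over genotypes, with a median of -0.14. Over all tested genes 8.64% were lower and 8.34% higher. The shuttle factor gene Rad23b (-0.32 ± 0.06, adjusted p = 0.000313), the lid-associated thioredoxin Txnl1 (-0.27 ± 0.06) and Ufd1l (-0.36 ± 0.09), a cofactor of the unfolding ATPase Vcp, were lower, and Ubqln4, another shuttle factor, was higher (0.37 ± 0.07, adjusted p = 0.000219). Of 7 tested genes that control proteasome transcription, 1 was lower, against 8.64% of all genes. It was Ngly1, the glycanase that processes the transcription factor Nfe2l1 (-0.23 ± 0.08, adjusted p = 0.0486). Nfe2l1 itself, named after its value was seen, gave 0.01 ± 0.06 (adjusted p = 0.935). Of 10 ubiquitin and conjugation genes 1 was lower, the ubiquitin-conjugating enzyme gene Ube2k (-0.18 ± 0.06), again against 8.64% of all genes.

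Promoters were searched because many of the genes moved together. RefSeq (GRCm38.p6) gave a start for 40 of the 48 genes, and windows of 250 bases before to 50 after the start were searched on both strands for 7 motifs. For some genes the RefSeq gene span begins before the start used, so part of the window lies inside the gene. Among them are Psmd2 (span from chr16:20651122), Psmb6 (chr11:70525324) and Psma3 (chr12:70969283). The ETS core CCGGAAG was in 13 of the 40 (32.5%), against 9.12% of 27025 genes. The GC box GGGCGG was in 57.5% against 35.9%, and the CCAAT box CCAAT in 35% against 37.9%. The antioxidant response element core TGACNNNGC, the type of site that Nfe2l1 and Nfe2l2 bind, was in 15% against 12.5%. The interferon-stimulated element core GAAANNGAA was in 15% against 8.57%, the gamma-activated site TTCNNNGAA in 7.5% against 8.47%, and the cyclic AMP response element TGACGTCA in 0 of 40 against 1.88%. A match is a run of letters and not a shown binding site.

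Of the 13 genes lower in females, 12 had a window, and 7 of these held the ETS core, as did 6 of the other 28 genes. The GC box was in 8 of the 12 and 15 of the 28, and the CCAAT box in 4 and 10. The antioxidant response element core was in 3 and 3, the interferon-stimulated element core in 1 and 5, and the gamma-activated site in 1 and 2. The part of any motif in the sex difference was not tested. The 7 genes with the ETS core are given with up to 15 bases on each side, upstream of the start site used or ending at it, 5′ to 3′ along the gene. Capitals mark the ETS core or its reverse complement CTTCCGG.
Psmd2 (chr16:20651611-20651647): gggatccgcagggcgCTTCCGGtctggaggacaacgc
Psmd4 (chr3:95042718-95042754): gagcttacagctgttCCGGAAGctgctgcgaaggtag
Psmd6 (chr14:14120969-14121005): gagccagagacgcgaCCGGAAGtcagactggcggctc
Psmd11 (chr11:80428589-80428614): aacgcgagggcgggtCTTCCGGgtgt
Psmd12 (chr11:107479496-107479527): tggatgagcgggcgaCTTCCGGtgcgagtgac
Psmd13 (chr7:140882373-140882394): cgcgcgcccgcggtgCCGGAAG
Psme4 (chr11:30771707-30771743): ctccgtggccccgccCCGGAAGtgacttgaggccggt

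The catalytic genes differed in these letters. Psmb5 and Psmb6 each held 1 antioxidant response element core and Psmb8 held 1 gamma-activated site, in capitals here. Psmb10, the gene that was higher in females, held none of the 7 motifs in its window, and Psmb9 held a GC box and a CCAAT box. Psmb7 had no window in the table and was not searched.
Psmb5 (chr14:54618019-54618057): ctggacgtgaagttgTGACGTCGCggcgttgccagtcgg
Psmb6 (chr11:70525333-70525356): gcggactaaagagagTGACGGAGC
Psmb8 (chr17:34198083-34198121): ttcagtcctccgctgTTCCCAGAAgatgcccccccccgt

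Genotype did not move any proteasome gene past the test. In females 0 of 46 genes passed, as did 0% of all 13470 genes, and at an unadjusted p under 0.05 there was 1, Psmf1, where 7.59% of all genes lay. In males 0 of 46 passed, against 0.111% of all genes, and 1 lay under the unadjusted threshold, Psmd9, against 7.17%. Averaged over sexes 0 passed (0.0148% of all genes) and 2 lay under it, Psmd9 and Psmb1 (6.94%). The median of the 46 genes was 0.03 in females and in males. The 95% interval of the fold change lay within 1.5-fold in either direction for 42 genes in females, 40 in males and 45 averaged over sexes. DESeq2 and limma voom also called 0 of the 46 in each of these comparisons.

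Psmf1, the inhibitor that binds the ends of the core, was at 25.1, 27.4, 26 and 26.7 CPM in Cyp2b-null females and 28.4, 29.1, 31.6 and 32.1 in hCYP2B6-Tg females. These groups did not overlap, and the difference was 0.20 ± 0.09 (adjusted p = 0.630). Psmd9, a chaperone of base assembly, was at 32.5, 35.6, 25.6 and 34.8 CPM in Cyp2b-null males and 42.0, 37.4, 44.1 and 37.0 in hCYP2B6-Tg males, also without overlap (0.32 ± 0.11, adjusted p = 0.432). In females Psmd9 was at 30.2 to 37.4 and 35.4 to 39.4 CPM, which overlapped. Groups lay apart for 2 of 46 genes in females (3.5% of all genes), the second being the core gene Psmb4, and for 1 in males (4.77%).

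Other roles gave no call for genotype either. Averaged over sexes, the member with the smallest p in the lid was Psmd11 (-0.11 ± 0.07, adjusted p = 0.807), in the alpha ring Psma2 (0.07 ± 0.07, adjusted p = 0.892) and among the core assembly chaperones Psmg3 (0.19 ± 0.11, adjusted p = 0.774). Psmb10 was at 39.4 ± 2.96 and 42.2 ± 1.68 CPM in Cyp2b-null and hCYP2B6-Tg females, and at 30.4 ± 5.18 and 27.0 ± 3.91 in the males (SD, n = 4). Its genotype effect differed between the sexes by 0.27 ± 0.17 (adjusted p = 0.739). For the difference of genotype effects 0 of 46 genes passed (0.0445% of all genes) and 0 lay under an unadjusted p of 0.05 (7.7%). The smallest p was that of Psmd14 (-0.31 ± 0.16, adjusted p = 0.667).

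Outside the 46 genes, Psme2b, the copy of Psme2, had a genotype estimate of -0.42 ± 0.13 averaged over sexes (adjusted p = 0.457), and Psme2 with Psme2b added gave -0.31 ± 0.13 (adjusted p = 0.648). In no list of partners, regulators or markers did a gene pass for genotype averaged over sexes.

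Within groups, most of the genes lay on the same side of their group means in some libraries. In tg_female 2, 37 of the 46 genes were above the mean of their group, and in null_female 5, 33 were. In tg_male 4 only 12 of 46 were above it, in null_male 1, 14, and in null_female 1, 15. Over all tested genes the share above the group mean stayed between 50.01% and 51.6% in each of the 16 libraries. The median deviation of the 46 genes ran from -0.06 in tg_male 4 to 0.06 in null_female 5 on the log2 scale, beside a median sex difference of -0.11. The core and base genes did not always go together: in tg_female 1, 9 of 14 core genes and 1 of 9 base genes were above the mean, in null_female 3, 6 and 0, and in null_female 1, 2 and 4.

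**Figure D5:**
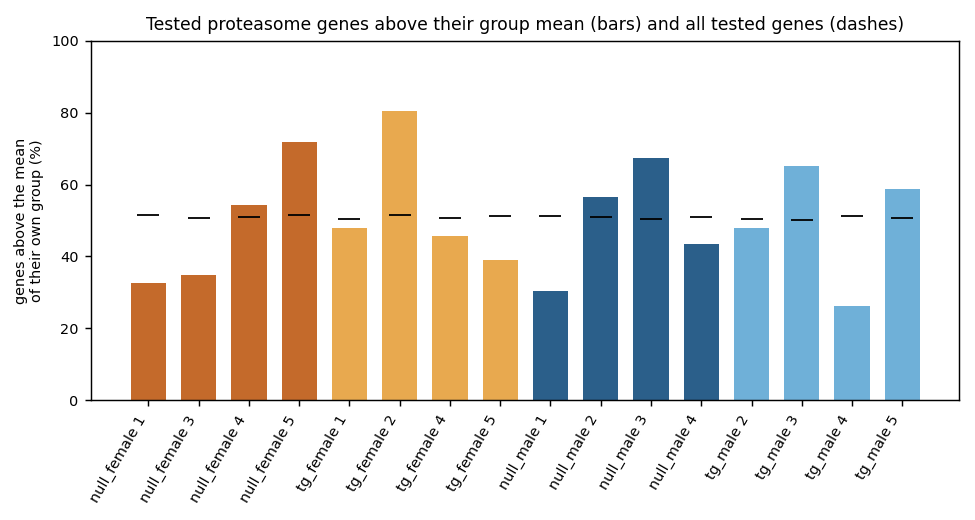
Share of the 46 tested proteasome genes above the mean of their own group in each library, in percent (bars, coloured by group), with the same share over all 13470 tested genes (dashes). The bars range from 12 of 46 genes in tg_male 4 to 37 of 46 in tg_female 2, while the dashes stay near 50.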

How the data were processed

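The authors deposited raw read counts per gene for 16 liver libraries of total RNA (NEB Next Ultra kit). FastQC, Trimmomatic, GSNAP, Subread and edgeR with GRCm38.p6 are listed per the submitters' processing notes, without versions; strand and the handling of multiply mapped reads are not stated in any source used here. Proteasome genes were taken by symbol. All 16 libraries entered one fit with a mean per group, in R 4.3.3: edgeR 4.0.16, default filter on low counts (13470 of 41585 rows kept), TMM scaling, robust quasi-likelihood test and Benjamini-Hochberg adjustment over all tested genes. DESeq2 1.42.0 and limma 3.58.1 were alternatives. The fit was checked on simulated data. Copies were annotated transcripts sharing stretches of 50 bases. Named were the 6 catalytic subunits, every gene that passed, the smallest p and the highest and lowest level of each role, genes below the filter, and up to 4 genes of each other list. The genes and lists were chosen with earlier results of these data known.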

Additional observations from a re-analysis of the deposited data

Results flagged for a closer look

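In 8 of 184 groups of 4 libraries, taken gene by gene, 1 library's level stood far from the other libraries of its group by Dixon's test, where chance flags about 1 in 20 groups. In the core, Psma5 was at 1.62 CPM in null_male 3 against 0.719 to 0.825 in the other libraries, without the reads in its copies. Psmb7 was at 97.3 CPM in tg_female 5 against 112 to 116. In the base, Psmc2 was at 73.6 CPM in tg_male 4 against 86.8 to 88.5, Psmc5 at 70.7 CPM in tg_female 4 against 62.2 to 63.5, and Psmc6 at 101 CPM in null_female 1 against 86.2 to 87.8. Among the assembly chaperones, Psmd10 was at 5.34 CPM in tg_male 5 against 4.43 to 4.5, Psmg2 at 13.8 CPM in null_female 5 against 11.9 to 12.2, and Psmg3 at 12.2 CPM in null_male 3 against 10.2 to 10.5. These single libraries were kept in every comparison of the report.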

How the results depend on the processing

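Genotype and its difference between sexes gave 0 proteasome genes in every alternative run. For sex averaged over genotypes, 14 genes became 10 to 16. In Cyp2b-null livers the 3 genes became 1 with no filter, 5 with DESeq2, 5 with copies summed, 0 without null_female 1, null_female 3 and tg_male 4 together, and 0 to 4 with 1 library left out. In hCYP2B6-Tg livers the 6 genes became 3 with library totals as the only scaling and 2 to 7 with 1 library left out. Genes whose groups did not overlap numbered 1 rather than 2 for genotype in females with RLE size factors or without ribosomal RNA rows. With library totals only they numbered 0 rather than 1 for genotype in males and 7 rather than 11 for sex in hCYP2B6-Tg livers. Psmb8 between the sexes in Cyp2b-null livers turned from 0.09 to -0.046 without null_male replicate 4, in a range from -0.046 to 0.22 with 1 library left out. The cause of these changes was not tested. The sum with copies and an older edgeR dispersion estimate were added after seeing the data.

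The replicate number as a block gave 12 genes for sex averaged, 4 in Cyp2b-null livers, 3 in hCYP2B6-Tg livers and 0 for genotype. In their deviations from group means over all tested genes, same-numbered libraries correlated at -0.107 to 0.122 and others at -0.132 to 0.148. With 3 same-numbered pairs in each comparison of groups, these values cannot decide whether the numbers pair libraries. Over 32 single-gene results, 770 of 880 values kept direction and call, 99 lost the call, 10 gained it and 1 turned. Low counts limit the Psma5, Psme2 and Psmb9 rows, and the Psma5 and Psme2 rows leave out the reads in their copies.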
